A study of Homo sapiens with 39 samples.

Results

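U2AF1 contacts that lie wholly inside introns were taken from 3 lists of PAR-CLIP clusters, as every cluster whose annotation column reads intron. They numbered 45191 of 148336 clusters. The S34F cytoplasm list held 9844 of them among 28828 clusters, the WT cytoplasm list 7691 among 26613, and the WT chromatin list 27656 among 92895. The choice rests on annotation alone and on no read count or sequence.

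PAR-CLIP marks the places where a protein touches RNA. Cells take up a photoreactive nucleoside, light links it to the bound protein, and reads from linked sites carry T-to-C conversions. A cluster is a short stretch of such reads with its own count and conversion fraction. The cells were Flp-In-293, a derivative of the HEK293 human embryonic kidney line, and all of them expressed U2AF1 with a FLAG-HA tag. The tagged protein was the S34F mutant, recovered from cytoplasm, or the wild-type form (WT), recovered from cytoplasm or from chromatin. No S34F chromatin list was analysed here, so mutant and wild type can be set side by side in cytoplasm only. Each list pools replicates A and B of its condition, so every condition stands as 1 sample, no p-value is given for any difference between lists, and intervals on shares and ratios (95%, exact binomial or exact conditional) cover counting error only. RNA immunoprecipitation (RIP) libraries from human bronchial epithelial cells (HBEC), in lines labelled S34F, FS and WT, serve as a second readout. FS is spelled out as Frame Shift in other labels of the series, and the sources used here do not say whether each line is 1 clone.

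U2AF1 is the small subunit of the U2 auxiliary factor, the complex that marks the 3′ splice site of an intron early in spliceosome assembly. Its partner U2AF2 binds the pyrimidine-rich tract, and U2AF1 itself contacts the AG dinucleotide that ends the intron. Serine 34 lies in a zinc finger of U2AF1 close to the base before that AG, and the S34F substitution, recurrent in myeloid neoplasms and lung adenocarcinoma, is known to shift 3′ splice-site choice towards sites with C and away from sites with T at that base. Clusters wholly within introns are therefore of interest for their CAG and TAG triplets, and because introns are removed before most mRNA leaves the nucleus.

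The sequences below are intron clusters with a CAG in capitals, placed 6 to 3 bases before the mode of the cluster, which is the position that the lists name as its mode. They were picked after their values were seen, among the most-read clusters with at least 5 distinct reads, to show how a pyrimidine-rich stretch leads into the triplet. ERBB4 is a receptor tyrosine kinase of the EGF receptor family, RYK is a Wnt receptor, NF1 is a negative regulator of Ras, CEP290 is a ciliary protein, and SERBP1 is an RNA-binding protein. Sequences are the deposited ones, written 5′ to 3′ along the transcript strand. The positions are those of the lists, whose genome build is not given in the sources used here. It is not GRCh38, by a check of the intron clusters whose gene symbol is in RefSeq. Of these, 16.1% in S34F cytoplasm, 16.9% in WT cytoplasm and 15.3% in WT chromatin fell within their gene's RefSeq GRCh38.p14 span.

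ERBB4 (chr2:213400209-213400242, minus strand, S34F cytoplasm, 203 reads): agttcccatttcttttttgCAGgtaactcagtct

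KCTD3 (chr1:215753355-215753393, plus strand, S34F cytoplasm, 211 reads): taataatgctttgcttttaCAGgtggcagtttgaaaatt

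RYK (chr3:133893716-133893750, minus strand, S34F cytoplasm, 179 reads): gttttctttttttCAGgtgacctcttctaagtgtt

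NF1 (chr17:29520011-29520040, plus strand, WT cytoplasm, 93 reads): actaatttcttttttttctttccCAGggac

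CEP290 (chr12:88529766-88529804, minus strand, WT cytoplasm, 93 reads): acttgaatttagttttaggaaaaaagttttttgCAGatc

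SERBP1 (chr1:67880529-67880561, minus strand, WT chromatin, 1899 reads): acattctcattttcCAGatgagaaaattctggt

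The next sequences hold a TAG, in capitals, in the same place. They were picked in the same way, and they show that the tract before a TAG can look much like the tract before a CAG. DIAPH3 is an actin-nucleating formin, USP24 is a deubiquitinase and THRAP3 is a splicing-associated protein.

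DIAPH3 (chr13:60633771-60633792, minus strand, S34F cytoplasm, 76 reads): aatttgtttttTAGgtgagagt

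KANSL1L (chr2:211029339-211029363, minus strand, WT cytoplasm, 73 reads): agttttcttccttcTAGgttcttcg

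USP24 (chr1:55642842-55642864, minus strand, WT cytoplasm, 68 reads): ggtttgtttTAGggaagaagagt

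THRAP3 (chr1:36754153-36754198, plus strand, WT chromatin, 908 reads): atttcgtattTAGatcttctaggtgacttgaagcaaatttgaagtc

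Introns held 34.1% of clusters in S34F cytoplasm (33.6 to 34.7%), 28.9% in WT cytoplasm (28.4 to 29.4%) and 29.8% in WT chromatin (29.5 to 30.1%). Their share of reads was smaller, at 18.2% of 658110 reads in S34F cytoplasm, 15.3% of 526075 in WT cytoplasm and 20.1% of 4723555 in WT chromatin. The mutant list thus had the largest intron share of clusters, and the chromatin list the largest intron share of reads. A single cluster in FCGR2B held 4.75% of all intron reads of S34F cytoplasm, and without it the intron share of reads there was 17.5%. Cytoplasm and chromatin differed more in clusters that span an intron and coding sequence. Clusters that the lists annotate as intron-coding made up 2.90% of clusters in S34F cytoplasm, 2.37% in WT cytoplasm and 16.2% in WT chromatin.

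The intron clusters themselves were short and lightly covered. Their median was 8 reads in S34F cytoplasm, 7 in WT cytoplasm and 23 in WT chromatin, against 11, 13 and 29 reads in coding clusters of the same lists. Median length was 23, 25 and 25 bases. The median T-to-C fraction of intron clusters was 1.0 in each list, whereas coding clusters had a median of 0.667 in S34F cytoplasm, 0.636 in WT cytoplasm and 1.0 in WT chromatin. The fraction depended on coverage: at 20 or more reads the intron medians of the cytoplasm lists were 0.524 in S34F and 0.5 in WT, against 0.370 and 0.391 in coding clusters. Clusters built from 1 distinct read made up 8.92% of intron clusters in S34F cytoplasm, 24.6% in WT cytoplasm and 5.68% in WT chromatin. The WT cytoplasm list therefore rests on the least varied reads. When only clusters with at least 20 reads were kept, introns held 18.7% of clusters in S34F cytoplasm, 10.1% in WT cytoplasm and 25.9% in WT chromatin, so the order of the cytoplasm lists stayed and WT chromatin then had the largest share.

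Intron clusters were rich in T. Thymine made up 34.4% of their bases in S34F cytoplasm, 34.8% in WT cytoplasm and 32.7% in WT chromatin, against 24.2%, 23.2% and 24.8% in coding clusters. The 3′ UTR clusters, however, had much the same T content, at 33.1%, 33.5% and 31.8%, so T content alone does not set introns apart. Runs of TTTT occurred in 39.5% of intron clusters of S34F cytoplasm, 36.6% of WT cytoplasm and 34.1% of WT chromatin. Words of other splice signals were scarce on the transcript strand: GTAAG, a 5′ splice-site word, was present in 1.33%, 1.16% and 1.38%, and CTAAC, a branch-site word, in 0.772%, 0.910% and 0.651%. The polyadenylation word AATAAA was present in 0.416%, 0.338% and 0.405% of intron clusters.

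CAG was the more common AG-ending triplet with a pyrimidine, and it was more frequent in S34F cytoplasm than in WT cytoplasm. CAG was present in 50.1% of intron clusters of S34F cytoplasm (49.1 to 51.0%), 38.0% of WT cytoplasm (36.9 to 39.1%) and 49.6% of WT chromatin (49.0 to 50.2%). TAG was present in 21.6% (20.8 to 22.5%), 24.4% (23.4 to 25.3%) and 30.03% (29.5 to 30.6%) of the same lists. Over all occurrences, the lists held 5672 CAG and 2454 TAG in S34F cytoplasm, 3389 and 2085 in WT cytoplasm, and 16959 and 9361 in WT chromatin. The CAG to TAG ratio was 2.31 in S34F cytoplasm (2.20 to 2.42), 1.63 in WT cytoplasm (1.54 to 1.72) and 1.81 in WT chromatin (1.77 to 1.86). The S34F to WT cytoplasm quotient of these ratios was 1.42 in intron clusters (1.32 to 1.53). It was 1.39 in intron-coding clusters (1.13 to 1.72), 0.871 in coding clusters (0.798 to 0.951) and 0.998 in 3′ UTR clusters (0.912 to 1.09). In coding-intron clusters, which also hold intron sequence, it was 0.754 (0.536 to 1.06). Intron and intron-coding clusters thus had intervals above 1, and the other named classes did not. AAG was also more frequent in introns of S34F cytoplasm, at 45.6%, against 37.1% in WT cytoplasm. The S34F to WT quotient of the CAG to AAG ratio was 1.01 (0.951 to 1.07), while that of the TAG to AAG ratio was 0.710 (0.661 to 0.762). GAG was present in 37.4% of S34F cytoplasm and 36.3% of WT cytoplasm intron clusters, and the quotient of AAG to GAG was 1.30 (1.22 to 1.37).

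CAG was most frequent 4 or 5 bases before the cluster mode in each list, while TAG had no such clear place in the cytoplasm lists. In S34F cytoplasm a CAG began 5 bases before the mode in 4.82% of clusters long enough to show it, against 1.69 to 2.56% at distances from 15 to 9 bases before it. In WT cytoplasm the CAG maximum lay 4 bases before the mode at 2.99%, and in WT chromatin at the same place at 5.42%. TAG had its maximum 5 bases before the mode in S34F cytoplasm, at 1.54% beside 1.45% at 7 bases before the mode, and in WT chromatin, at 3.13%. In WT cytoplasm the highest TAG value, 1.47%, lay at the mode itself, beside 1.44% 5 bases before it. Thymine made up 40.5% of bases from 15 to 7 bases before the mode in S34F cytoplasm, 38.1% in WT cytoplasm and 40.3% in WT chromatin. In the 9 bases after the mode it made up 32.2%, 33.5% and 29.4%.

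**Figure D1:**
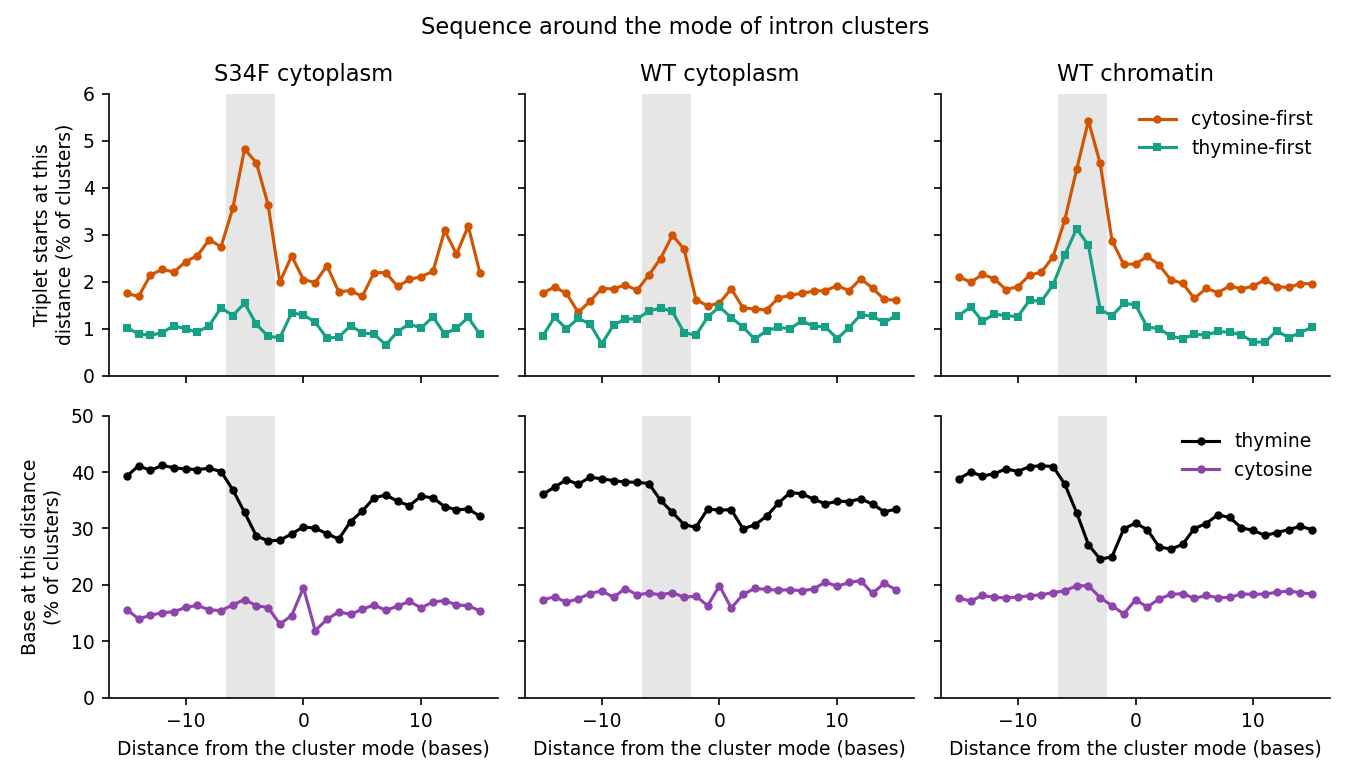
Sequence around the mode of intron clusters in the 3 lists. The upper panels give the share of clusters (%) in which CAG (cytosine-first) or TAG (thymine-first) begins at each distance (bases) from the mode, the lower panels the share of thymine and cytosine at each distance, and the grey band marks 6 to 3 bases before the mode. The CAG maximum reaches 4.82% in S34F cytoplasm, 2.99% in WT cytoplasm and 5.42% in WT chromatin, and thymine is high to the left of the band.

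Mutant and wild type were next compared in the window from 6 to 3 bases before the mode, set after this profile was seen. There CAG was present in 1136 of 6716 intron clusters of S34F cytoplasm (16.9%, 16.03 to 17.8%), 557 of 5233 of WT cytoplasm (10.6%, 9.82 to 11.5%) and 3817 of 21225 of WT chromatin (18.0%, 17.5 to 18.5%). TAG was present in 326 clusters of S34F cytoplasm (4.85%, 4.35 to 5.40%), 273 of WT cytoplasm (5.22%, 4.63 to 5.85%) and 2082 of WT chromatin (9.81%, 9.41 to 10.2%). AAG was present in 11.3% of S34F cytoplasm clusters (10.5 to 12.1%) and 7.47% of WT cytoplasm clusters (6.77 to 8.22%). In cytoplasm, then, the lists differed in both CAG and AAG, while their TAG shares had overlapping intervals. The CAG to TAG ratio in the window was 3.48 in S34F cytoplasm (3.08 to 3.95), 2.04 in WT cytoplasm (1.76 to 2.37) and 1.83 in WT chromatin (1.74 to 1.93). The S34F to WT cytoplasm quotient was 1.71 (1.41 to 2.07). The quotient of CAG to AAG was 1.05 (0.895 to 1.24) and that of TAG to AAG 0.616 (0.501 to 0.758), so CAG and AAG differed alike against TAG. GAG shares had overlapping intervals too, at 9.08% in S34F cytoplasm (8.41 to 9.80%) and 8.56% in WT cytoplasm (7.82 to 9.35%). The quotient of AAG to GAG was 1.42 (1.19 to 1.70), so TAG was not singled out. A window of the same width from 3 to 6 bases after the mode had a CAG to TAG quotient of 1.25 (0.985 to 1.60), from ratios of 2.05 and 1.64. That interval overlaps the 1.41 to 2.07 found before the mode. The TAG to AAG quotient after the mode was 0.666 (0.530 to 0.837), so that difference was not confined to the window before the mode.

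In the same window of other classes, the quotient was 1.01 in coding clusters (0.763 to 1.35), 1.05 in 3′ UTR clusters (0.793 to 1.40), 1.09 in clusters without annotation (0.695 to 1.69) and 1.39 in intron-coding clusters (0.742 to 2.59). In coding-intron clusters it lay below 1, at 0.545, with a wide interval (0.199 to 1.45). The intervals of the coding and 3′ UTR quotients ended just below that of introns, and those of the other classes overlapped it, so the counts do not separate every class from introns. Chromosome by chromosome, the ratio was higher in S34F cytoplasm than in WT cytoplasm on 21 of 23 chromosomes. The exceptions were chromosomes 4 and 15. Chromosomes are slices of the same pooled lists and not replicates. Some held few TAG, as chromosome 16 with 2 in S34F cytoplasm and 3 in WT cytoplasm. In the 2152 genes with intron clusters in both cytoplasm lists the window ratio was 3.40 in S34F cytoplasm (2.96 to 3.92) and 2.02 in WT cytoplasm (1.72 to 2.39). Among clusters with at least 3 distinct reads it was 4.06 (3.47 to 4.77) and 2.05 (1.66 to 2.54), so the difference was as large without the clusters of few distinct reads. At 20 or more reads it was 5.05 (3.55 to 7.36) and 1.97 (1.26 to 3.14).

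**Figure D2:**
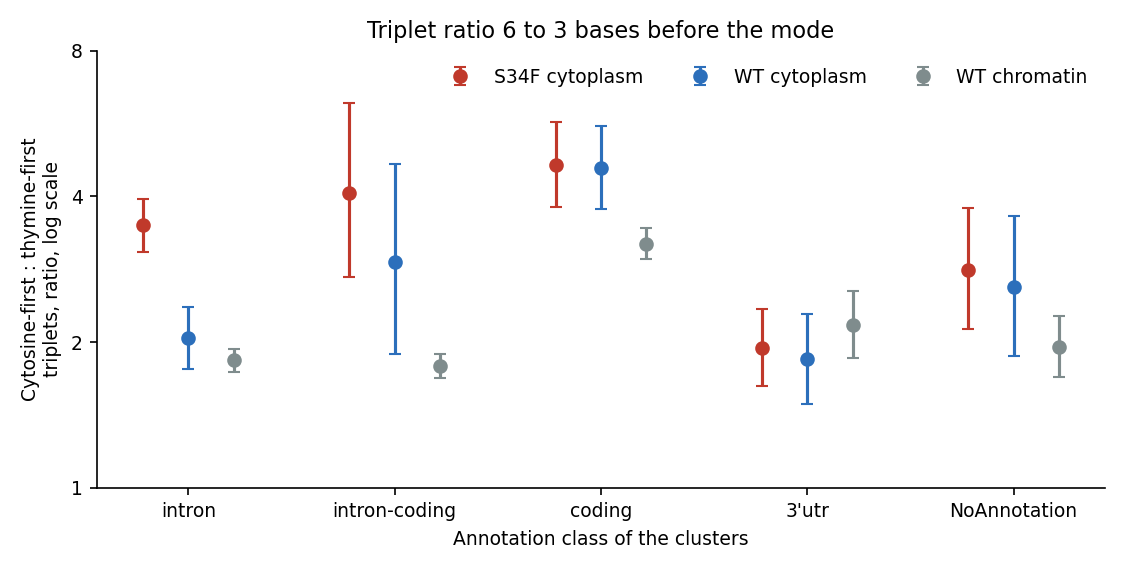
CAG to TAG ratio (cytosine-first over thymine-first, log axis) from 6 to 3 bases before the cluster mode, by annotation class and list. Points are ratios and bars their exact 95% binomial intervals, which cover counting error only. The coding-intron class is not drawn. Intron clusters have 3.48 in S34F cytoplasm, 2.04 in WT cytoplasm and 1.83 in WT chromatin, while in coding and 3′ UTR clusters the intervals of the cytoplasm lists overlap.

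A pyrimidine-rich lead-in accompanied the windowed triplets. Of the 10 bases before a CAG of the window, 69.4% ± 20.97 were C or T in S34F cytoplasm (SD over 781 triplets with all of these bases inside the cluster), 68.0% ± 21.7 in WT cytoplasm (SD, 397 triplets) and 69.2% ± 22.1 in WT chromatin (SD, 2049 triplets). Over all bases of intron clusters, C and T made up 50.2%, 53.4% and 50.7%. This is a low baseline, since the bases before the mode are richer in pyrimidines whatever the triplet. From 15 to 7 bases before the mode of all intron clusters, T made up 40.5%, 38.1% and 40.3% and C 15.4%, 18.1% and 18.0%. Before a TAG of the window the means were 61.9% in S34F cytoplasm, 66.9% in WT cytoplasm and 69.0% in WT chromatin. Before a CAG in the window after the mode they were lower, at 60.1%, 57.9% and 50.2%. The base after a windowed CAG was G in 40.4% of cases in S34F cytoplasm, 40.7% in WT cytoplasm and 28.2% in WT chromatin, and after a CAG of the window after the mode in 42.5%, 39.5% and 30.5%, so this base did not set the windowed sites apart. Whether these sites are annotated intron ends was not analysed here, since no exon annotation on the build of the lists was used.

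Few intron clusters were shared between lists. A cluster counted as shared when it had at least 1 base in common with any cluster of the other list on the same strand. Of S34F cytoplasm intron clusters, 459 (4.66%, 4.25 to 5.10%) overlapped a WT cytoplasm cluster, and 460 WT cytoplasm clusters (5.98%, 5.46 to 6.53%) overlapped an S34F cytoplasm cluster. With WT chromatin, 1294 clusters of S34F cytoplasm (13.1%) and 755 of WT cytoplasm (9.82%) overlapped, which left most cytoplasm intron sites without a chromatin partner. Of the WT chromatin intron clusters, 4.69% overlapped an S34F cytoplasm cluster and 2.67% a WT cytoplasm cluster. Coding clusters of S34F cytoplasm were shared more often, 12.8% with WT cytoplasm and 37.6% with WT chromatin, and intron-coding clusters of S34F cytoplasm reached 59.4% with WT chromatin. The 3′ UTR clusters were shared less often than introns with WT chromatin, at 9.44% for S34F cytoplasm and 8.71% for WT cytoplasm, and more often between the cytoplasm lists, at 10.2% of S34F and 12.6% of WT clusters. Shared intron clusters were better covered. Their median was 14 reads in S34F cytoplasm and 13 in WT cytoplasm, against 7 reads for the unshared clusters of each. Among clusters with at least 20 reads, 29.6% of S34F cytoplasm and 25.8% of WT cytoplasm intron clusters had a WT chromatin partner.

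**Figure D3:**
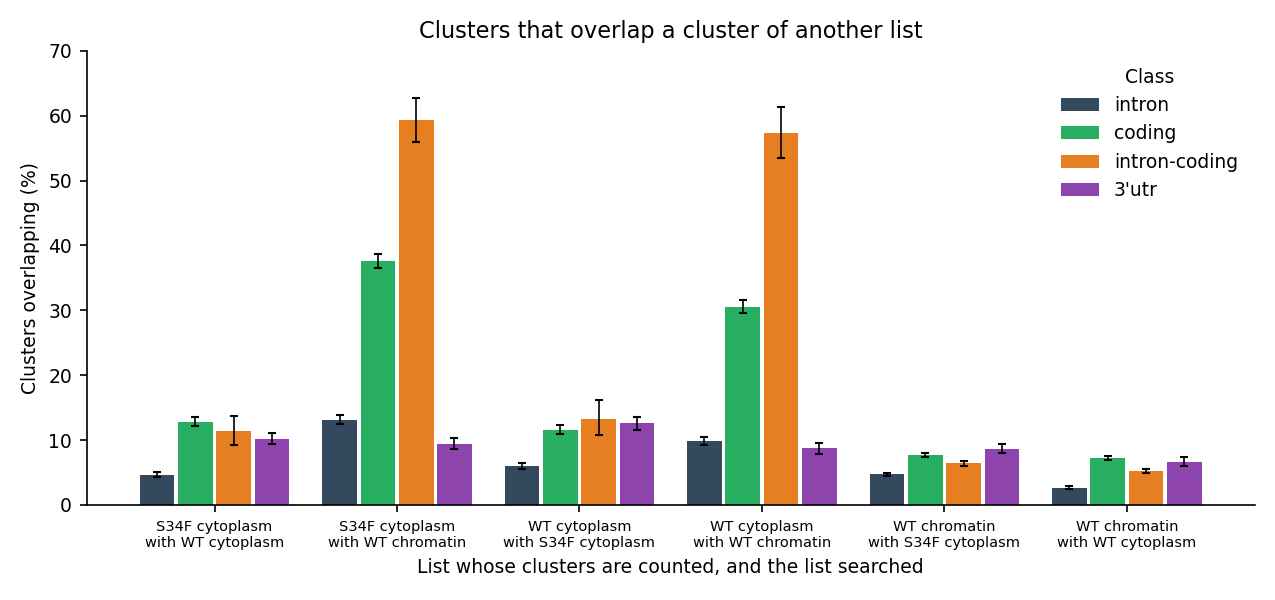
Share of clusters (%) of each list that overlap a cluster of another list by at least 1 base on the same strand, for the intron, coding, intron-coding and 3′ UTR classes. Bars start at 0 and carry exact 95% binomial intervals. Intron clusters are lowest where the cytoplasm lists are compared and where WT chromatin clusters are looked up in them, 3′ UTR clusters are lowest where cytoplasm clusters are looked up in WT chromatin, and the intron-coding class reaches 59.4% for S34F cytoplasm and 57.4% for WT cytoplasm when WT chromatin is searched.

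The triplet difference was present among the unshared sites. Intron clusters of S34F cytoplasm with no WT cytoplasm partner had a windowed CAG to TAG ratio of 3.55 (3.13 to 4.05), against 1.93 (1.65 to 2.25) for WT cytoplasm clusters with no S34F partner. Shared sites had 2.64 (1.64 to 4.37) when read from the S34F list and 3.67 (2.15 to 6.56) when read from the WT list, with wide intervals from 91 and 84 triplets. Those triplets are too few to tell the shared sites of the lists apart. Clusters with a WT chromatin partner had 3.68 (2.74 to 5.03) in S34F cytoplasm and 3.13 (2.08 to 4.81) in WT cytoplasm, with overlapping intervals. Clusters with no WT chromatin partner had 3.44 (3.00 to 3.96) and 1.90 (1.62 to 2.23). By either split, the cytoplasm lists were told apart only among clusters without a partner.

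Sites present in all 3 lists were few: 154 WT chromatin intron clusters, in 135 genes, overlapped an intron cluster in both cytoplasm lists. The site with the most reads in its weakest list lay in LEMD3, an inner nuclear membrane protein gene, with 93 reads in S34F cytoplasm, 151 in WT cytoplasm and 84 in WT chromatin. The ERBB4 site printed above had 203 reads in S34F cytoplasm, 68 in WT cytoplasm and 262 in WT chromatin. A site in HP1BP3, which encodes a heterochromatin-binding protein, had 909, 77 and 68 reads. A site in SF3B1, the U2 snRNP protein that is itself mutated in myeloid neoplasms, had 42, 84 and 596 reads. Reads of the lists are not scaled here, and the WT chromatin list holds the most. The count was highest in S34F cytoplasm at this HP1BP3 site and also at a site each in CEP290, ZFR, ADK, URI1 and DDX17. The CEP290 site had 241 reads in S34F cytoplasm, 27 in WT cytoplasm and 42 in WT chromatin. It was highest in WT cytoplasm at the LEMD3 site and at sites in UBAP2L, PTPRA, ERC1 and KANSL1L. The UBAP2L site had 21 reads in S34F cytoplasm, 459 in WT cytoplasm and 87 in WT chromatin. Neither direction was counted over all 154 sites. Sites were matched by at least 1 shared base, so the modes of a site can differ between lists. The UBAP2L mode in WT cytoplasm and the HP1BP3 mode in S34F cytoplasm lay outside the WT chromatin cluster of their site. Those counts therefore need not be of the same peak.

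Some of the most-read clusters shared words with small RNAs. An example from each cytoplasm list is shown because single clusters of this kind are among the leading per-gene counts.

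FCGR2B (chr1:161582521-161582588, plus strand, S34F cytoplasm, 5697 reads): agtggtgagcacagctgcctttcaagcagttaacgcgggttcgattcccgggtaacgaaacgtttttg

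FER (chr5:108227216-108227245, plus strand, WT cytoplasm, 422 reads): ccattctcactactgcacttgactagtctt

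The FCGR2B cluster, in a gene for an Fc gamma receptor with near-identical neighbouring copies, had 5697 reads in S34F cytoplasm and a T-to-C fraction of 0.348. It holds the B-box word of tRNA genes, searched on the transcript strand and found in 1 of 9844 intron clusters of S34F cytoplasm, 0 of 7691 of WT cytoplasm and 1 of 27656 of WT chromatin. In the other classes the word was present in 4 of 18984, 0 of 18922 and 7 of 65239 clusters. The FER cluster shares a 14-base word with clusters that these lists annotate as Y RNA, a family of small noncoding RNAs bound by Ro60. Such words were present in 11 intron clusters of S34F cytoplasm with 2.07% of its intron reads, 22 of WT cytoplasm with 3.34%, and 1 of WT chromatin with 0.000527%. In WT cytoplasm they included the FER, TOP2A and NVL clusters, with 422, 291 and 276 reads. Small nucleolar RNA words were present in 7, 4 and 40 intron clusters, led in WT chromatin by WDR43 with 646 reads. The part of such RNAs in the per-gene values was not tested.

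Intron clusters were spread over 3573 genes in S34F cytoplasm, 3593 in WT cytoplasm and 5713 in WT chromatin, of which 2000 were in all 3 lists. In S34F cytoplasm 146 genes had at least 10 intron clusters, in WT cytoplasm 53 and in WT chromatin 737. RFC3, a subunit of the replication clamp loader named here after its values were seen, had the most in S34F cytoplasm, with 39, against 10 in WT cytoplasm and 70 in WT chromatin. SLIT2, a secreted axon guidance protein, had 25 in S34F cytoplasm and led the other lists with 32 in WT cytoplasm and 97 in WT chromatin. Of the clusters whose gene symbol is in the deposited RIP table, 99.0% in S34F cytoplasm, 99.2% in WT cytoplasm and 99.2% in WT chromatin lay within the span given there on the same strand. The median cluster lay at 0.435, 0.423 and 0.484 of the way along its gene. Among clusters with a chromatin intron-coding cluster further along the same gene, the median distance to the nearest was 8413 bases in S34F cytoplasm, 8967 in WT cytoplasm and 5531 in WT chromatin, so most did not sit beside a junction bound in chromatin. Chromosome 13 held 5.29% of intron clusters in S34F cytoplasm and 3.12% in WT cytoplasm, and chromosome 14 held 4.87% and 2.52%. For coding clusters chromosome 13 held 2.38% and 1.98%, and chromosome 14 held 4.74% and 2.67%.

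Reads in intron clusters were summed per gene and scaled to all cluster reads of the list. In these bulk lysates, more binding to a gene's introns and more of its unspliced RNA in the fraction cannot be told apart. Between the cytoplasm lists, 1007 genes had at least 50 intron reads in both together, and 161 of them (16%) were at least 4-fold higher in S34F and 87 (8.64%) at least 4-fold lower, with a pseudocount of 1 read. Over clusters of all classes the direction was the opposite, with 9.84% of 3670 genes higher and 17.4% lower. The median log2 ratio was 0.33 for introns and -0.37 for all classes. Scaled to intron reads alone, the intron median was 0.09 and the split was 131 higher and 108 lower, or 54.8% of calls higher against 64.9%. In the 935 genes listed in both, 130 were higher and 65 lower. A gene absent from a list may have had reads below the list's minimum, so no fold is given against it.

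The genes with the most intron reads in S34F cytoplasm, beyond the single clusters of FCGR2B, SHF and SH2D6, were HP1BP3 and HNRNPH1. HNRNPH1, a splicing regulator that binds G-rich RNA, had 827 reads in 17 clusters in S34F cytoplasm, 250 in 12 clusters in WT cytoplasm and 3373 in 22 clusters in WT chromatin. Scaled to all cluster reads of its list, its level was 1257 RPM (the usual depth-scaled unit of reads) in S34F cytoplasm, 475 in WT cytoplasm and 714 in WT chromatin. HP1BP3 stood at 1571, 376 and 129 RPM, but 909 of its 1034 S34F reads came from 1 site. Without that site it stood at 189.9 RPM in S34F cytoplasm and 230.0 in WT cytoplasm, so the direction turned. In WT cytoplasm the leading genes were ERC1, a scaffold protein of the secretory pathway and synapse, at 995 RPM in S34F cytoplasm and 1044 in WT cytoplasm, and UBAP2L, a stress granule protein, at 125 in S34F cytoplasm and 903 in WT cytoplasm. ERC1 had 308 of its 655 S34F reads at 1 site, and without it stood at 527 in S34F cytoplasm and 992 in WT cytoplasm. UBAP2L owed 459 of its 475 WT reads to 1 cluster, and without it stood at 92.7 in S34F cytoplasm and 30.4 in WT cytoplasm, the opposite direction.

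Genes without a listed intron cluster in 1 of the cytoplasm lists lay at both ends of the comparison. EIF1AX, a translation initiation factor, had 577 reads in S34F cytoplasm and CHN2, a Rac-directed GTPase-activating protein, had 479, and neither was listed in WT cytoplasm. Of the EIF1AX reads, 552 came from 1 cluster with a T-to-C fraction of 0.0305. SHF, an adaptor protein, had 2090 reads in 1 cluster and SH2D6 1892 in 1 cluster, which shares a Y RNA word. The T-to-C fraction was 0.520 for SHF and 0.0424 for SH2D6. The median was 0.524 over S34F cytoplasm intron clusters with at least 20 reads, so few EIF1AX and SH2D6 reads carried the mark of contact. DDAH1, which degrades methylated arginine, had 168 reads in WT cytoplasm, FRMPD4 had 136 in 10 clusters and the corepressor gene NCOR1 97 in 10 clusters, and none was listed in S34F cytoplasm. The other genes of this set rest on 1 to 3 clusters.

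In WT cytoplasm against WT chromatin, 165 of 3520 genes (4.69%) were at least 4-fold higher and 1372 (39%) at least 4-fold lower, with a median log2 ratio of -1.05. Over all classes 10.8% of genes were higher and 28.5% lower. Much of the lower set had no listed cytoplasm cluster: 1181 of the 3520 genes had none, and among the 2324 listed in both, 145 were higher and 233 lower with a median of -0.24. With a pseudocount of 10 reads, 218 genes were higher and 115 lower, since 10 reads weigh more in the list with fewer reads. The direction of this comparison over genes therefore depended on that choice. Scaled to intron reads alone, 247 were higher and 1283 lower, with a median of -0.66. The genes with the most chromatin intron reads were named for that rank, so their lower level in WT cytoplasm follows in part from the choice. POLA1, the catalytic subunit of DNA polymerase alpha, stood at 378 RPM in S34F cytoplasm, 555 in WT cytoplasm and 1227 in WT chromatin. PRKDC, the DNA-dependent protein kinase, stood at 211 in WT cytoplasm and 1072 in WT chromatin, IARS, isoleucyl-tRNA synthetase, at 125 and 874, and MGEA5, which removes O-GlcNAc, at 200 and 797. KDM1A, a histone demethylase, NUP205 and NUP133, both nuclear pore proteins, and ERCC3, a helicase of transcription factor TFIIH, had 1210, 1165, 1121 and 1037 chromatin reads and no listed WT cytoplasm cluster.

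Genes of the splicing machinery were among the hosts. Of 22 genes for 3′ splice-site factors, 15 had an intron cluster in some list, with 82 clusters in S34F cytoplasm, 48 in WT cytoplasm and 205 in WT chromatin. Of the 9 with enough reads between the cytoplasm lists, 1 was at least 4-fold higher in S34F and 1 lower, beside 16% and 8.64% of all genes tested. The median log2 ratio of the 9 was 0.32 against 0.33 for all genes tested. U2AF1 itself had 238, 152 and 1471 intron reads, or 362 RPM in S34F cytoplasm, 289 in WT cytoplasm and 311 in WT chromatin. RBM39, a U2AF-related splicing factor, stood at 451, 464 and 574, and DDX46, a helicase of the U2 snRNP pathway, at 135, 28.5 and 247. U2AF1 and RBM39 varied little over the lists, and DDX46 was low in WT cytoplasm. Of the 89 DDX46 reads in S34F cytoplasm 62 came from 1 site, and without it DDX46 stood at 41.03 there and 28.5 in WT cytoplasm. For WT cytoplasm over WT chromatin the median of these factors was -1.31 over 13 genes, with 1 at least 4-fold higher and 6 lower, beside 39% lower among all genes tested. Over the 9 factors listed in both it was -0.74, so -1.31 rests in part on genes with no listed cytoplasm cluster.

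Of 25 hnRNP genes, 22 had intron clusters, 167 in S34F cytoplasm, 89 in WT cytoplasm and 333 in WT chromatin. Their median log2 ratio between the cytoplasm lists was 1.37 over 13 genes, beside 0.33 for all genes tested. Of the 13 hnRNP genes 1 was at least 4-fold higher and 1 lower, beside 16% and 8.64% of all genes tested. PTBP2, the neuronal polypyrimidine tract-binding protein, stood at 555 RPM in S34F cytoplasm, 196 in WT cytoplasm and 308 in WT chromatin. HNRNPA2B1 stood at 568, 589 and 352, so the hnRNP genes differed among themselves. For WT cytoplasm over WT chromatin the hnRNP median was -0.81 over 19 genes, with 0 at least 4-fold higher and 6 lower, a share below the 39% lower among all genes tested, and -0.65 over the 17 listed in both. Of 14 SR and Tra2 genes, 11 had intron clusters and the median was -0.55 between the cytoplasm lists over 8 genes and 0.31 for WT cytoplasm over WT chromatin over 10. SRSF7 stood at 10.6 in S34F cytoplasm, from 7 reads in 1 cluster, 143 in WT cytoplasm and 236 in WT chromatin. Between the cytoplasm lists the log2 ratio was -3.57 for SRSF7, -0.83 for SRSF11, -0.08 for TRA2B and 0.23 for SRSF4.

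Of 22 genes known for detained introns, which stay in nuclear polyadenylated RNA, 19 had intron clusters, all 19 in WT chromatin, 13 in S34F cytoplasm and 14 in WT cytoplasm. Their median log2 ratio was 0.33 between the cytoplasm lists over 9 genes, and -1.36 for WT cytoplasm over WT chromatin over 18, beside -1.05 for all genes tested. It was -0.97 over the 14 listed in both, beside -0.24 for all genes listed in both. OGT, the O-GlcNAc transferase, stood at 123, 171 and 533 RPM, and NKTR at 299.3, 129 and 286. Of 34 snoRNA host genes 17 had intron clusters, with 20, 25 and 93 clusters, and a median of -1.82 between the cytoplasm lists over 5 genes. Their median for WT cytoplasm over WT chromatin was -2.64 over 13 genes, but 0.64 over the 9 listed in both, so its direction rests on genes with no listed cytoplasm cluster. NCL, nucleolin, had no listed cluster in S34F cytoplasm, 15 reads in WT cytoplasm and 1003 in WT chromatin. Of 20 genes reported with S34F-sensitive exon use, 17 had intron clusters. None of the 3 with enough reads was past 4-fold between the cytoplasm lists, beside 16% higher and 8.64% lower among all genes tested. The median of the 3 was -0.22. For WT cytoplasm over WT chromatin the median of this gene list was -0.02 over 12 genes and 0.08 over the 11 listed in both. Of 25 signalling and adhesion genes with long introns, 20 had intron clusters, with a median of -0.03 between the cytoplasm lists over 9 genes and 0.78 for WT cytoplasm over WT chromatin over 15. AUTS2 stood at 232, 243 and 276 RPM, and NBEA at 246, 120 and 58.2.

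**Figure D4:**
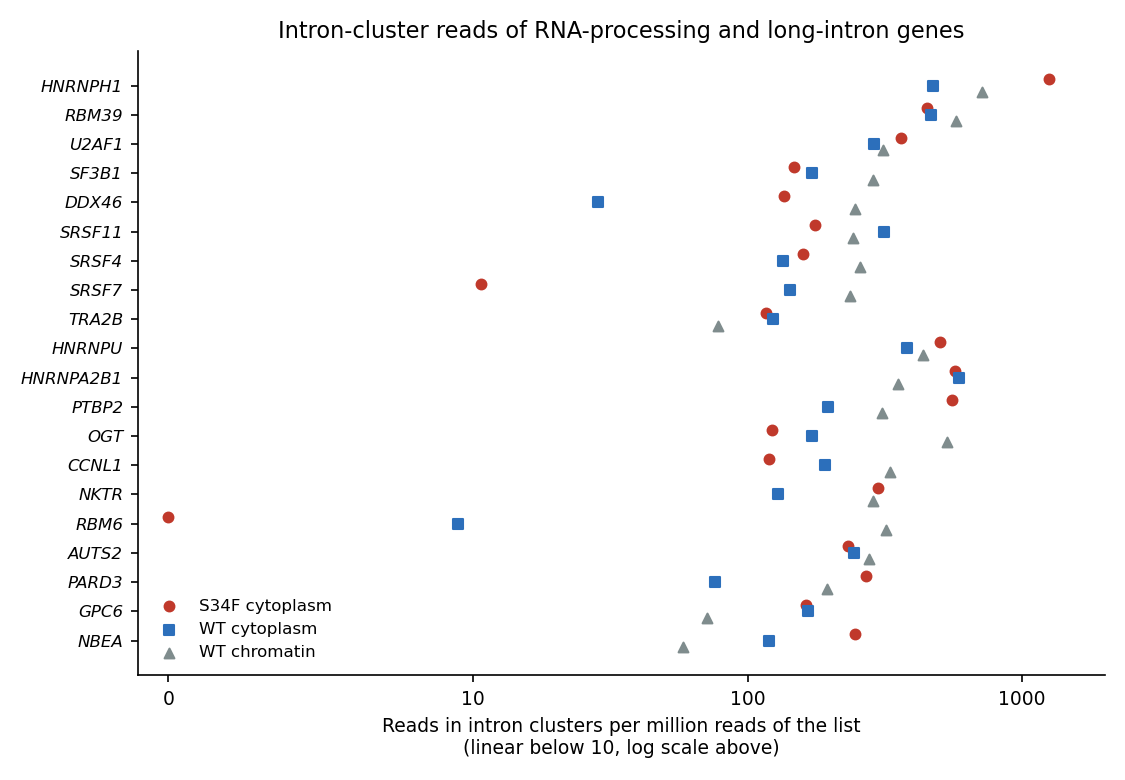
Reads in intron clusters scaled to the cluster reads of the list (RPM, linear below 10, log scale above) for genes of splicing, detained introns and long introns, with 1 point per list. HNRNPH1 reaches 1257 in S34F cytoplasm, 475 in WT cytoplasm and 714 in WT chromatin, DDX46 is lowest in WT cytoplasm at 28.5, and RBM6 has no listed cluster in S34F cytoplasm.

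The RIP libraries gave a readout of the host genes in other cells. U2AF1 precipitate (IP) was set against control immunoglobulin precipitate (IgG) and against cytosolic RNA within each HBEC line, for 12403 genes with at least 10 expected counts on average. The libraries held 2582141 to 29769968 counts, with the IP totals at 2582141 in S34F, 3067034 in FS and 8552934 in WT. Each line has 1 library of each kind. The median log2 ratio of IP over IgG for genes with an S34F cytoplasm intron cluster was 0.12 in S34F, 0.41 in FS and 0.43 in WT, or 0.32 ± 0.17 (SD, n = 3 lines), against 0.16 ± 0.16 for all genes. Hosts of WT cytoplasm and WT chromatin intron clusters had 0.29 ± 0.13 and 0.27 ± 0.15. The hosts lay above all genes in each of the 3 lines, by 0.16 ± 0.07 for S34F cytoplasm hosts. Genes with exon clusters and no intron cluster in S34F cytoplasm also lay above all genes in each line, at 0.25 ± 0.16. In that list, then, this is not particular to intron hosts. Such genes had 0.21 ± 0.18 for WT cytoplasm and 0.17 ± 0.17 for WT chromatin, the last close to all genes. They lay below the intron hosts of the same list in each line. With median-of-ratios scaling the S34F cytoplasm hosts had 0.137 and all genes 0.0133, so the level depends on the scaling while the hosts stayed above all genes in the 3 lines.

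IP over cytosol gave the same order. The spread between lines was as large as the medians. Hosts of S34F cytoplasm intron clusters had 0.14 ± 0.22, hosts of WT cytoplasm clusters 0.12 ± 0.18 and hosts of WT chromatin clusters 0.04 ± 0.16 (SD, n = 3 lines each; -0.04 for the last without the WT line), against -0.03 ± 0.14 for all genes. The hosts again lay above all genes in the 3 lines. Genes with exon clusters and no intron cluster had -0.02 ± 0.11, -0.07 ± 0.11 and -0.09 ± 0.13 in the same lists. No test is given over 3 lines of 1 library each, and the expression level of hosts was not matched to that of other genes.

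**Figure D5:**
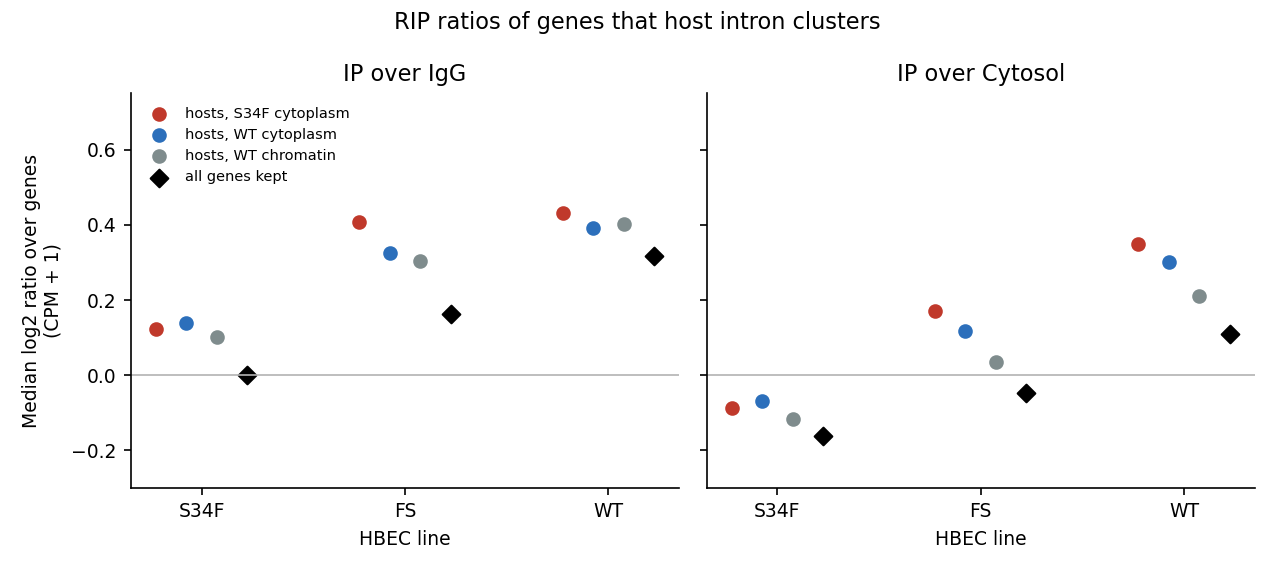
Median log2 ratio (CPM + 1) of U2AF1 precipitate over control precipitate and over cytosolic RNA, per HBEC line, for genes that host intron clusters of each PAR-CLIP list and for all 12403 genes kept. Each point is the median over genes of 1 line with 1 library of each kind. The hosts lie above all genes in every line, and the median of all genes for precipitate over control precipitate differs between lines, from 0 in S34F to 0.32 in WT.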

How the data were processed

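The series holds 39 samples, of which the 6 PAR-CLIP samples, in 3 pooled lists, and the 9 RIP libraries were used. The polysome libraries were not analysed here. Per the file headers, the authors deposited whole-number counts of reads and conversions for each cluster, beside its conversion fraction. Every cluster had at least 4 reads and 2 conversion positions. For RIP, the authors deposited 1 table of expected counts by gene symbol for each library. TopHat is named in the submitters' processing notes. The cluster caller, its settings, how the mode of a cluster is defined, and the genome build are not given in the sources used here. Clusters were taken as listed.

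From the lists, shares, medians, motif counts on the transcript strand, overlaps and reads per gene were computed with Python 3.11.15, pandas 2.3.3, numpy 2.4.6 and scipy 1.17.1, and figures with matplotlib 3.10.9. The motifs overlap: every TNCAG is also a CAG. Intervals of shares are exact binomial ones at 95%, those of medians come from order statistics, and those of quotients of ratios are exact conditional ones. Reads are not counted as molecules. Per-gene ratios used reads scaled to the list total with a pseudocount of 1 and at least 50 reads over both lists, and 4-fold was the rule of size. RIP ratios used CPM with a pseudocount of 1 on the log2 scale.

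The genes named were the 5 with most intron reads per list, the 6 at each end of each comparison, the 5 most-read clusters per list and up to 4 per gene list by intron reads, while clusters by distance to an annotated intron end were not analysed here, and others are marked as picked after their values were seen. The members, the gene lists and the motifs were chosen with earlier results of these data known. The window before the mode was set after its profile was seen. The window, overlap and ratio steps were tested on simulated data. Settings were varied by minimum reads, minimum conversion positions, distinct sequences, weighting by reads, overlap, scaling, pseudocount, filter and line. Some items are not reported here.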

Additional observations from a re-analysis of the deposited data

How the results depend on the processing

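Of 207 alternatives for the main values, 90 left the value within its spread or interval and 117 moved it, mostly when lightly covered clusters were dropped, and the cause of the moves was not tested. With a pseudocount of 10 reads the median log2 ratio of WT cytoplasm over WT chromatin was 0.13, against -1.05 as reported, and without the WT line the IP over cytosol median of WT chromatin hosts was -0.04, against 0.04. In each alternative run, S34F cytoplasm had the higher intron share of clusters, the higher share with CAG and the higher CAG to TAG ratio of the cytoplasm lists. With at least 10 reads per cluster, the intron share of clusters was 24.3% in S34F cytoplasm, 17.6% in WT cytoplasm and 28.8% in WT chromatin. The intron share of reads was 13.9% in S34F cytoplasm, 10.6% in WT cytoplasm and 19.8% in WT chromatin. The median T-to-C fraction was 0.727 in S34F cytoplasm and 0.765 in WT cytoplasm. Median reads was 14 reads in S34F cytoplasm, 13 reads in WT cytoplasm and 26 reads in WT chromatin. Median length was 26 bases in S34F cytoplasm and 27 bases in WT cytoplasm. The T share was 35.2% in S34F cytoplasm, 35.8% in WT cytoplasm and 32.8% in WT chromatin. The CAG to TAG ratio was 2.44 in S34F cytoplasm. The share with CAG was 62.2% in S34F cytoplasm, 43.3% in WT cytoplasm and 50.4% in WT chromatin. The share with TAG was 25.3% in S34F cytoplasm, 29.3% in WT cytoplasm and 30.8% in WT chromatin. The window ratio was 4.16 in S34F cytoplasm. The share of intron clusters shared was 7.36% for S34F cytoplasm with WT cytoplasm, 22.8% for S34F cytoplasm with WT chromatin, 10.1% for WT cytoplasm with S34F cytoplasm, 18.0% for WT cytoplasm with WT chromatin, 3.18% for WT chromatin with S34F cytoplasm and 1.80% for WT chromatin with WT cytoplasm. With at least 20 reads per cluster, the intron share of clusters was 18.7% in S34F cytoplasm, 10.1% in WT cytoplasm and 25.9% in WT chromatin. The intron share of reads was 10.5% in S34F cytoplasm, 6.83% in WT cytoplasm and 18.6% in WT chromatin. The median T-to-C fraction was 0.524 in S34F cytoplasm and 0.5 in WT cytoplasm. Median reads was 29 reads in S34F cytoplasm, 28 reads in WT cytoplasm and 35 reads in WT chromatin. Median length was 29 bases in S34F cytoplasm, 29 bases in WT cytoplasm and 26 bases in WT chromatin. The T share was 36.5% in S34F cytoplasm, 37.0% in WT cytoplasm and 33.1% in WT chromatin. The CAG to TAG ratio was 2.48 in S34F cytoplasm. The share with CAG was 75.1% in S34F cytoplasm, 51.5% in WT cytoplasm and 53.3% in WT chromatin. The share with TAG was 29.5% in S34F cytoplasm, 35.4% in WT cytoplasm and 33.1% in WT chromatin. The window ratio was 5.05 in S34F cytoplasm. The share of intron clusters shared was 10.3% for S34F cytoplasm with WT cytoplasm, 29.6% for S34F cytoplasm with WT chromatin, 17.3% for WT cytoplasm with S34F cytoplasm, 25.8% for WT cytoplasm with WT chromatin, 1.70% for WT chromatin with S34F cytoplasm and 0.904% for WT chromatin with WT cytoplasm. With at least 3 conversion positions per cluster, the intron share of clusters was 26.2% in S34F cytoplasm, 18.4% in WT cytoplasm and 19.1% in WT chromatin. The intron share of reads was 13.4% in S34F cytoplasm, 9.03% in WT cytoplasm and 13.6% in WT chromatin. The median T-to-C fraction was 0.846 in S34F cytoplasm and 0.867 in WT cytoplasm. Median reads was 11 reads in S34F cytoplasm, 12 reads in WT cytoplasm and 40 reads in WT chromatin. Median length was 29 bases in S34F cytoplasm, 29 bases in WT cytoplasm and 33 bases in WT chromatin. The T share was 36.1% in S34F cytoplasm and 37.7% in WT cytoplasm. The share with CAG was 61.6% in S34F cytoplasm, 47.9% in WT cytoplasm and 58.7% in WT chromatin. The share with TAG was 26.3% in S34F cytoplasm, 33.1% in WT cytoplasm and 37.0% in WT chromatin. The window ratio was 1.97 in WT chromatin. The share of intron clusters shared was 5.55% for S34F cytoplasm with WT cytoplasm, 14.2% for S34F cytoplasm with WT chromatin, 11.8% for WT cytoplasm with S34F cytoplasm, 13.97% for WT cytoplasm with WT chromatin and 6.11% for WT chromatin with S34F cytoplasm. With clusters weighted by their reads, the intron share of clusters was 18.2% in S34F cytoplasm, 15.3% in WT cytoplasm and 20.1% in WT chromatin. The CAG to TAG ratio was 2.64 in S34F cytoplasm and 1.49 in WT cytoplasm. The share with CAG was 59.4% in S34F cytoplasm, 41.1% in WT cytoplasm and 57.5% in WT chromatin. The share with TAG was 23.4% in S34F cytoplasm, 28.9% in WT cytoplasm and 36.0% in WT chromatin. Without the most-read intron cluster, the intron share of reads was 17.5% in S34F cytoplasm and 20.04% in WT chromatin. With at least 3 distinct reads per cluster, the window ratio was 4.06 in S34F cytoplasm. With 50% of both clusters shared, the share of intron clusters shared was 3.92% for S34F cytoplasm with WT cytoplasm, 9.99% for S34F cytoplasm with WT chromatin, 5.01% for WT cytoplasm with S34F cytoplasm, 6.93% for WT cytoplasm with WT chromatin, 3.56% for WT chromatin with S34F cytoplasm and 1.92% for WT chromatin with WT cytoplasm. With a pseudocount of 10 reads per gene, 88 genes were at least 4-fold higher in intron reads for S34F over WT cytoplasm. With a pseudocount of 10 reads per gene, 115 genes were at least 4-fold lower in intron reads for WT cytoplasm over chromatin. With at least 20 intron reads over both lists, 395 genes were at least 4-fold higher in intron reads for S34F over WT cytoplasm. With at least 20 intron reads over both lists, 293 genes were at least 4-fold lower in intron reads for S34F over WT cytoplasm. With at least 20 intron reads over both lists, 408 genes were at least 4-fold higher in intron reads for WT cytoplasm over chromatin. With median-of-ratios scaling, the RIP median of IP over IgG was 0.137 for hosts of S34F cytoplasm clusters, 0.104 for hosts of WT cytoplasm clusters and 0.0852 for hosts of WT chromatin clusters, against 0.0133 for all genes. Leaving out 1 HBEC line at a time, the median of IP over IgG for hosts ranged from 0.27 to 0.42 in S34F cytoplasm, 0.23 to 0.36 in WT cytoplasm and 0.20 to 0.35 in WT chromatin, and that of IP over cytosol from 0.04 to 0.26, 0.02 to 0.21 and -0.04 to 0.12. Without the most-read site of the gene, the log2 ratio of S34F over WT cytoplasm turned to -0.28 for HP1BP3, 1.54 for UBAP2L and 0.47 for FER, since that site held most of the reads of the gene in 1 list. The alternatives for the window ratio, and those without the most-read cluster or site, were chosen after seeing the data. No paired analysis was possible because replicates A and B are pooled in each list and each RIP line has 1 library of each kind. The share of intron clusters near the 3′ end of the intron was not run, since no exon annotation on the build of the lists was used. Depth limits the lists unequally: the median intron cluster has 8 reads in S34F cytoplasm, 7 in WT cytoplasm and 23 in WT chromatin, and a site missing from a list may lie below its minimum of 4 reads.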
